A study of Mus musculus with 54 samples.

Results

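Whole cerebellum from mice at postnatal day 5 (P5), labelled as lacking both Rnaseh2b and p53 in the Nes-cre lineage, was compared with cerebellum labelled as lacking p53 alone. The comparison used every library of these 2 groups in the deposited P5 table, 4 of genotype RnaseH2B,p53 Nes-cre (called Rnaseh2b/p53 below) and 3 of genotype p53 Nes-cre (called p53). These are 7 of the 20 P5 libraries and of the 54 libraries in the series. Both groups share the Nes-cre transgene and the p53 deletion, so the Rnaseh2b deletion is the labelled difference between them. The other P5 groups served for side-by-side values and for tests of differences between backgrounds, and were RnaseH2B,Atm Nes-cre (Rnaseh2b/Atm, 4 libraries), Atm Nes-cre (Atm, 3 libraries), RnaseH2B Nes-cre (Rnaseh2b, 3 libraries) and Control (control, 3 libraries). Total RNA was extracted with TRIzol and sequenced with strand information, per the labels. Nes-cre is active in progenitors of neurons, astrocytes and oligodendrocytes, so microglia, vessels, blood and muscle of these mice are not expected to carry the deletions. The labels do not say whether libraries of a group came from separate animals or litters, so p-values measure the spread between these libraries only.

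RNase H2 is a nuclear enzyme of 3 subunits, of which Rnaseh2b encodes a non-catalytic one. It removes single ribonucleotides built into DNA during replication and degrades the RNA of RNA-DNA hybrids. In humans, mutations of its subunits cause Aicardi-Goutières syndrome, an inherited brain disease with a type I interferon signature. Many interferon-stimulated genes carry response elements in their promoters. The transcription factor p53 acts on damaged DNA by inducing genes of arrest, apoptosis and metabolism, among them Cdkn1a, Bax and Ccng1. With p53 deleted in both groups, the comparison asks which transcripts followed the Rnaseh2b deletion in a cerebellum labelled p53-deficient.

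Counted in M (mega) reads within genes, the 7 libraries held 48.2 M to 91.4 M, except Rnaseh2b/p53 replicate 3 with 711 M. The other P5 libraries held 54.0 M to 95.1 M. Markers of the cerebellum were present, since all 12 granule cell progenitor genes, 14 granule neuron genes and 15 Purkinje cell genes passed the filter of 1 CPM (counts scaled to library depth) in at least 3 libraries. Xist was high in 1 of 4 Rnaseh2b/p53 libraries (replicate 2) and in 2 of 3 p53 libraries (replicates 2 and 3). Rnaseh2b/p53 replicate 4 had the highest share of reads outside genes (28.3% of its reads, against 17.9% to 26.3% in the other 19 P5 libraries) and of unaligned reads (3.08%, against 0.755% to 1.24%). The mean level of hindbrain Hox genes, given relative to the mean of the 20 libraries, spanned -3.77 to 1.40 on the log2 scale in Rnaseh2b/p53 and -4.32 to 0.91 in p53 libraries, a wide and overlapping range in both groups. Levels below are the authors' log2 CPM, and fold changes are Rnaseh2b/p53 over p53 on the log2 scale with the standard error (SE) of a limma fit to all 20 P5 libraries. A gene is called, and said to rise or fall, at a Benjamini-Hochberg adjusted p below 0.05 over 15421 tested genes.

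The deleted gene was checked first. Rnaseh2b stood at 2.17, 2.30, 2.21 and 2.11 log2 CPM in Rnaseh2b/p53 libraries, against 4.44, 4.26 and 4.54 in p53 libraries, so the groups were far apart and varied little within themselves. It fell by 2.22 ± 0.21 on the log2 scale (limma adjusted p = 0.00016), and its mean per length, in FPKM (fragments scaled to transcript length and library depth), was 0.974 in Rnaseh2b/p53 against 4.52 in p53. The other groups deleted for Rnaseh2b had a similar remaining level, with means of 2.01 log2 CPM in Rnaseh2b and 1.91 in Rnaseh2b/Atm. Neither the other 2 subunits, Rnaseh2a (0.09 ± 0.10) and Rnaseh2c (0.15 ± 0.18), nor Rnaseh1 (0.04 ± 0.09), which degrades longer hybrids, nor Top1 (0.02 ± 0.13), the topoisomerase that also cuts DNA at ribonucleotides, was called.

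Trp53, which encodes p53, was low in both groups, at 2.23, 2.16, 1.76 and 1.94 log2 CPM in Rnaseh2b/p53 and 1.73, 1.30 and 1.89 in p53. The 2 groups overlapped and the difference was not called (0.38 ± 0.29). Means of 3.94 log2 CPM in Rnaseh2b and 3.71 in control showed the undeleted level, and Trp53 fell by 2.07 ± 0.31 in p53 against control (adjusted p = 0.0139). Atm did not differ beyond its spread, with a log2 fold change of -0.05 ± 0.20.

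Few genes passed the test across the whole transcriptome. Of 15421 tested genes, 29 were called (0.188%), 19 higher (0.123%) and 10 lower (0.0648%) in Rnaseh2b/p53. Apart from Rnaseh2b they comprised 3 interferon-stimulated genes (Oasl2, Gbp2 and Ifi35), 5 skeletal muscle genes (Myog, Tnnc2, Tnni1, Myh3 and Mylpf), the microglial receptor gene Gpr34, the brain endothelial transporter gene Slco1c1, the ribosomal protein gene Rpl3 with its pseudogene copy Rpl3-ps1, 6 other named protein-coding genes, the noncoding RNA listed as RNaseP_nuc, and 9 gene models. At an unadjusted p below 0.05, 355 genes were higher (2.3%) and 252 lower (1.63%). The count of calls rested on the full set of libraries. Without Rnaseh2b/p53 replicates 1, 2, 3 and 4 in turn it was 7, 8, 6 and 11, and without p53 replicates 1, 2 and 3 it was 13, 16 and 9. Rnaseh2b, Tnnc2, Tnni1, Vps13a, Gm15920 and 6030458C11Rik were called in all 7 of these fits, and 13 of the 29 genes in none. With the 2 groups fitted alone, 61 genes were called.

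**Figure D1:**
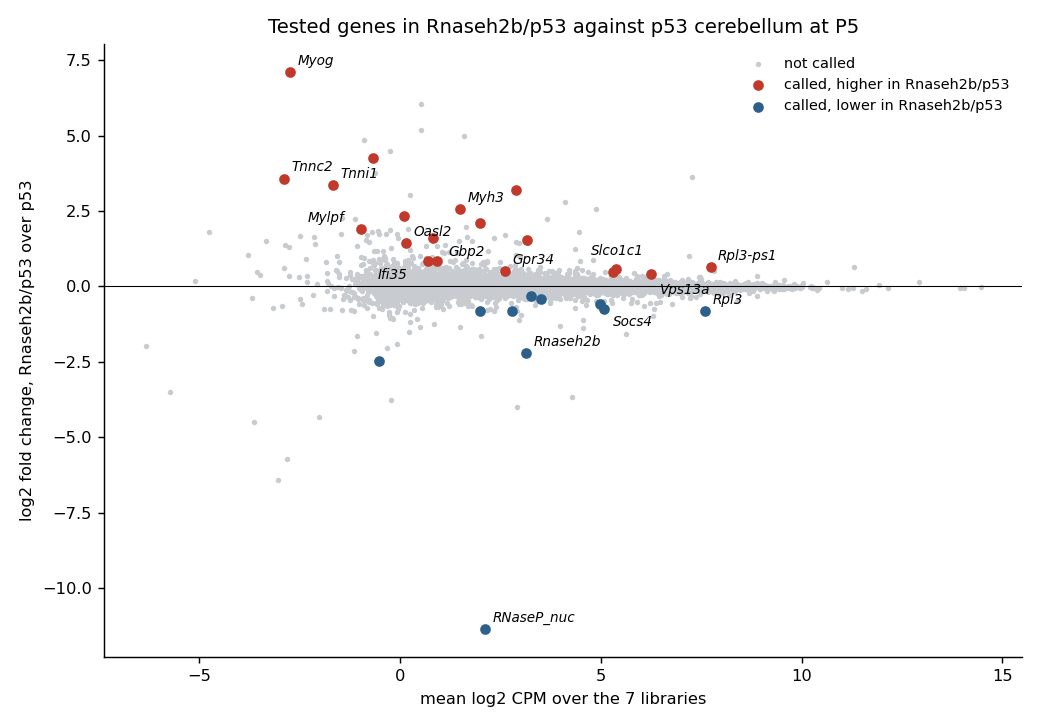
Each point is one of 15421 tested genes, with its mean log2 CPM over the 7 libraries on the x axis and the log2 fold change of Rnaseh2b/p53 over p53 on the y axis. Red points are the 19 genes called higher and blue points the 10 called lower in Rnaseh2b/p53, while the grey points of the remaining genes lie close to 0 at high levels and scatter more widely at low ones.

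Interferon-stimulated genes were higher in Rnaseh2b/p53 as a group, mostly by less than the threshold could separate gene by gene. The list held 56 genes, of which 55 were in the table and 42 were tested. Of these 42, 3 rose and 0 fell, 32 were higher at an unadjusted p below 0.05, and 28 had all 4 Rnaseh2b/p53 libraries above all 3 p53 libraries, where 4.64% of tested genes did (4.29% had them all below). Among all tested genes 0.123% rose and 2.3% were higher at that unadjusted p. All 42 tested members had positive fold changes, with a median of 0.67 against -0.002 over all tested genes. Of the 42, 39 would have passed the filter without any Rnaseh2b/p53 library and 33 without any group deleted for Rnaseh2b, so some members entered the test through the groups in which they were high. Voom on whole reads recovered from the deposited values also called 3 of the 42, Oasl2 and Ifi35 among them with Herc6 in place of Gbp2. Leaving out 1 library changed the count, to 0 without Rnaseh2b/p53 replicates 2, 3 or 4, p53 replicates 1 or 3 or Rnaseh2b/Atm replicate 2, to 1 without Rnaseh2b/p53 replicate 1, p53 replicate 2, Rnaseh2b/Atm replicates 1 or 4 or any Rnaseh2b replicate, and to 5 without control replicate 1. The median stayed between 0.60 and 0.73 when any of the 7 libraries was left out.

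The mean level of the 42 genes, taken relative to the mean of the 20 libraries, was 0.06, 0.66, 0.44 and 0.25 in Rnaseh2b/p53 replicates 1 to 4 and -0.36, -0.38 and -0.33 in p53 libraries. The p53 libraries lay within a narrow band, and the Rnaseh2b/p53 libraries all lay above them but spread over a much wider range. Different families led in different libraries. The GTPase family was highest in replicate 2 (0.86) and lowest in replicate 1 (-0.08), whereas the Ifit and Oas family was highest in replicate 3 (1.11) and also lowest in replicate 1 (0.10).

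The Ifit and Oas proteins bind or sense viral RNA. Oasl2, an interferon-induced member of the oligoadenylate synthetase family, stood at 0.38, 0.97, 0.78 and 0.998 log2 CPM in Rnaseh2b/p53 and -0.70, -0.38 and -0.88 in p53. The groups did not overlap, and Oasl2 rose by 1.44 ± 0.24 (adjusted p = 0.0324), on 126 to 1637 reads per library in Rnaseh2b/p53 and 51 to 88 in p53. Ifit1, which recognises RNA lacking cap methylation, had a similar size of difference but more spread, at -0.44, 0.67, 1.41 and 0.95 log2 CPM in Rnaseh2b/p53 and -0.47, -1.37 and -1.02 in p53 (1.602 ± 0.53, not called). The gene listed as I830012O16Rik, a near copy of Ifit3 now named Ifit3b, differed by 1.53 ± 0.37 and Ifit3 by 0.86 ± 0.32, and reads shared between these copies make their split uncertain. Only 5 of the 11 family members in the table were tested, and of these 5 only 3 would have been tested without the Rnaseh2b/p53 libraries and 2 without any group deleted for Rnaseh2b, so their shared direction was partly fixed by the filter. Ifit2 had the smallest difference of the 5 (0.28 ± 0.12).

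Guanylate-binding proteins and immunity-related GTPases attack the membranes of intracellular pathogens. Gbp2 stood at 1.01, 1.70, 1.12 and 1.33 log2 CPM in Rnaseh2b/p53 and 0.19, 0.65 and 0.54 in p53, without overlap, and rose by 0.83 ± 0.16 (adjusted p = 0.0411). Its per-length level averaged 1.31 FPKM in Rnaseh2b/p53 and 0.727 FPKM in p53. Among the 11 tested GTPase genes, 9 were higher at an unadjusted p below 0.05 and 8 had groups that did not overlap, with a median fold change of 0.80. Across all tested genes, 2.3% were higher at that unadjusted p and 4.64% had Rnaseh2b/p53 libraries all above p53 libraries. Iigp1 had the largest difference in the family and the widest spread, at -0.59, 1.67, 0.64 and 0.51 in Rnaseh2b/p53 and -1.41, -1.47 and -1.02 in p53 (1.86 ± 0.49, adjusted p = 0.256). Gbp6 (0.82 ± 0.18) and Gbp9 (0.74 ± 0.17), which are close sequence relatives, and Irgm1 (0.80 ± 0.20), a regulator of the family, were not called. Gbp6 and Gbp9 were called when the 2 groups were fitted alone.

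Among the other effectors, Ifi35, which encodes an interferon-induced leucine zipper protein, was the most uniform of the interferon genes called. Its level was 1.14, 1.15, 1.002 and 0.998 log2 CPM in Rnaseh2b/p53 and 0.16, 0.20 and 0.29 in p53, with a wide gap between the groups, and it rose by 0.85 ± 0.16 (adjusted p = 0.0389). The antiviral enzyme gene Rsad2 stood at 1.79, 2.56, 1.75 and 1.54 in Rnaseh2b/p53 and 0.67, 0.86 and 0.90 in p53 (1.10 ± 0.36, not called). Of 17 tested effectors, with a median of 0.60, 11 were higher at an unadjusted p below 0.05, where 2.3% of all tested genes were. These 11 included Rtp4 (0.996 ± 0.26), the membrane restriction factor gene Ifitm3 (0.72 ± 0.20) and the ADP-ribosyltransferase gene Parp14 (0.76 ± 0.22). Slfn2 was not among them (0.22 ± 0.44), and its lowest level of the 7 libraries was in Rnaseh2b/p53 replicate 4 (-2.18 log2 CPM).

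The ISG15 and Trim group, which covers the ubiquitin-like ISG15 pathway and interferon-linked ubiquitin ligases, had 9 tested genes with a median of 0.49. By limma 0 of the 9 were called, 7 were higher at an unadjusted p below 0.05, and voom called 1, the ISG15 ligase gene Herc6. Among all tested genes 2.3% were higher at that unadjusted p, and 4.64% had Rnaseh2b/p53 libraries all above p53 libraries. Herc6 was at 1.33, 1.66, 1.77 and 1.70 in Rnaseh2b/p53 and 1.02, 0.66 and 0.64 in p53 (0.84 ± 0.18, adjusted p = 0.113). Trim30a (0.84 ± 0.27), Trim34a (0.62 ± 0.19), Trim25 (0.34 ± 0.11) and Trim12c (0.49 ± 0.17) had groups that did not overlap, while Usp18, the protease that removes ISG15, overlapped (1.002 ± 0.36).

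Promoter windows are shown for the 3 interferon genes that were called, because these are the members the test singled out. Each runs from 250 bases before to 50 bases after the start of the gene in RefSeq on GRCm38.p6, with the best match to the core of the interferon-stimulated response element (GAAA, any 2 bases, GAAA) on either strand in capitals. The first is Gbp2 at chr3:142620413-142620712, plus strand, with an exact match that begins 59 bases before the start. The second is Oasl2 at chr5:114896684-114896983, plus strand, whose best match has 1 mismatch, lies in a run of A and begins 71 bases before the start. The third is Ifi35 at chr11:101448162-101448461, plus strand, whose best match also has 1 mismatch and begins 19 bases after the start. A match with at most 1 mismatch is common, since 38.9% of all genes with a window hold one.
Gbp2: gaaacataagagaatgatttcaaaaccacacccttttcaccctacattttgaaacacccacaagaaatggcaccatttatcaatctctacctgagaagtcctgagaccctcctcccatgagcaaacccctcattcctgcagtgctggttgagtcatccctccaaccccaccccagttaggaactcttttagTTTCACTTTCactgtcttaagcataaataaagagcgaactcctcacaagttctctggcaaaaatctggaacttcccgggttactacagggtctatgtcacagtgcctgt
Oasl2: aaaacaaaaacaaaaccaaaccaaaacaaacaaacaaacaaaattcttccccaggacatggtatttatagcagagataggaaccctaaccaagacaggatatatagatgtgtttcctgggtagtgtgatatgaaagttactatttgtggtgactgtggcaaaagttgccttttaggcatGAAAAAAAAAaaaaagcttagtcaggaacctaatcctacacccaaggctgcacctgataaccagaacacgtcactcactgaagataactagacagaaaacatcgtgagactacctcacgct
Ifi35: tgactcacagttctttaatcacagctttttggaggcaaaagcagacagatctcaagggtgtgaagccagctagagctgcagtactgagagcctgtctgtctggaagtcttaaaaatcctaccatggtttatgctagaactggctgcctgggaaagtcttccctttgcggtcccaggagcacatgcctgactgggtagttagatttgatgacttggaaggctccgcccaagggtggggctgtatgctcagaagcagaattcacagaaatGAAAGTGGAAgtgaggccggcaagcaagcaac

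Exact matches were common among interferon genes that were higher without being called. Stretches of 30 bases around the exact match follow for 12 of the tested genes whose Rnaseh2b/p53 libraries all lay above the p53 libraries, chosen because they hold such a match, to show the bases around it. Some tested genes whose groups overlapped also held one, among them Ifit3, Gbp3, Bst2 and Eif2ak2.
Ifit1, chr19:34640775-34640804, plus strand: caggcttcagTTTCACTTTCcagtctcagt
Trim21, chr7:102565450-102565479, minus strand: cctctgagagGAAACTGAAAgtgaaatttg
Trim34a, chr7:104244457-104244486, plus strand: tggtttggagTTTCAGTTTCttttctctgc
Trim12c, chr7:104353359-104353388, minus strand: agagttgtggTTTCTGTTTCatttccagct
Gbp7, chr3:142530273-142530302, plus strand: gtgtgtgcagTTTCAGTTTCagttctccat
Igtp, chr11:58199512-58199541, plus strand: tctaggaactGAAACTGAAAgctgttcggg
Irgm2, chr11:58214903-58214932, plus strand: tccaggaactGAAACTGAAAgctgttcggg
Irgm1, chr11:48871431-48871460, minus strand: cctgtttcaaGAAATAGAAAccgaaactga
Rsad2, chr12:26456553-26456582, minus strand: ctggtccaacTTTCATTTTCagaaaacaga
Ifitm3, chr7:141010723-141010752, minus strand: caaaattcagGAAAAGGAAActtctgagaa
B2m, chr2:122147538-122147567, plus strand: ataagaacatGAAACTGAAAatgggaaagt
Erap1, chr13:74639839-74639868, plus strand: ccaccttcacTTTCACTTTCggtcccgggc

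In the RefSeq windows, 24 of 42 interferon-stimulated genes with a window (57.1%) held an exact match, against 3.99% of 27025 genes. These 42 are the list members with a window, some of them untested, and not the same set as the 42 tested genes. By family this was 8 of 8 GTPase genes, 7 of 10 Ifit and Oas genes, 5 of 9 ISG15 and Trim genes and 4 of 15 other effectors. A match is a run of letters in the window and says nothing about binding. Among p53 targets 1 of 30 windows (3.33%) and among muscle genes 0 of 24 held one. With at most 1 mismatch, 39 of the 42 interferon-stimulated genes with a window (92.9%) held a match. This compares with 38.9% of all genes, 33.3% of p53 targets and 29.2% of muscle genes.

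Class I antigen presentation, which interferon also raises, followed the same direction. H2-K1, a class I heavy chain gene, was at 3.03, 4.17, 3.09 and 3.03 log2 CPM in Rnaseh2b/p53 and 2.35, 2.12 and 2.41 in p53. All 4 Rnaseh2b/p53 libraries lay above the p53 libraries, and replicate 2 lay far above the others (1.03 ± 0.21, adjusted p = 0.0647). Without replicate 2, H2-K1 was called. Its light chain gene B2m showed the same picture, with 4.73, 5.32, 4.74 and 4.72 in Rnaseh2b/p53 and 4.34, 4.43 and 4.44 in p53 (0.48 ± 0.17). Of 11 tested genes of the pathway, limma called 0 and voom called 0, 8 were higher at an unadjusted p below 0.05, and 7 had groups that did not overlap, with a median of 0.31. For all tested genes the shares were 2.3% higher at that unadjusted p and 4.64% with Rnaseh2b/p53 libraries all above p53 libraries. The peptide trimming gene Erap1 (0.28 ± 0.08), the peptide transporter gene Tap2 (0.37 ± 0.13) and the immunoproteasome gene Psmb8 (0.52 ± 0.17) were among these 7, and Psmb10 (-0.04 ± 0.13) was not.

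Upstream of these targets the median differences were smaller, although the largest among the signalling genes was 0.77. The transcription factor gene Irf1 differed by 0.43 ± 0.13 and was not called. Receptor and kinase genes stayed near 0, with Ifnar1 at -0.03 ± 0.04 and Jak1 at -0.01 ± 0.05, and the median of the 13 signalling genes was 0.05. Among cytosolic sensors of RNA, Ddx58 (RIG-I) differed by 0.56 ± 0.14 and Ifih1 (MDA5) by 0.53 ± 0.14, each without overlap between the groups. The DNA sensor gene listed as E330016A19Rik (cGAS, 0.06 ± 0.17) and its adaptor gene listed as Tmem173 (STING, 0.08 ± 0.24) did not differ beyond their errors. Limma and voom each called 0 of 13 signalling and 0 of 11 sensor genes, of which 2 and 3 were higher and 0 and 1 lower at an unadjusted p below 0.05. Rnaseh2b/p53 libraries lay all above p53 libraries in 30.8% of signalling and 36.4% of sensor genes, and all below in 7.69% and 9.09%. Among all tested genes 4.64% lay all above and 4.29% all below. At that unadjusted p, 2.3% of all tested genes were higher and 1.63% lower.

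**Figure D2:**
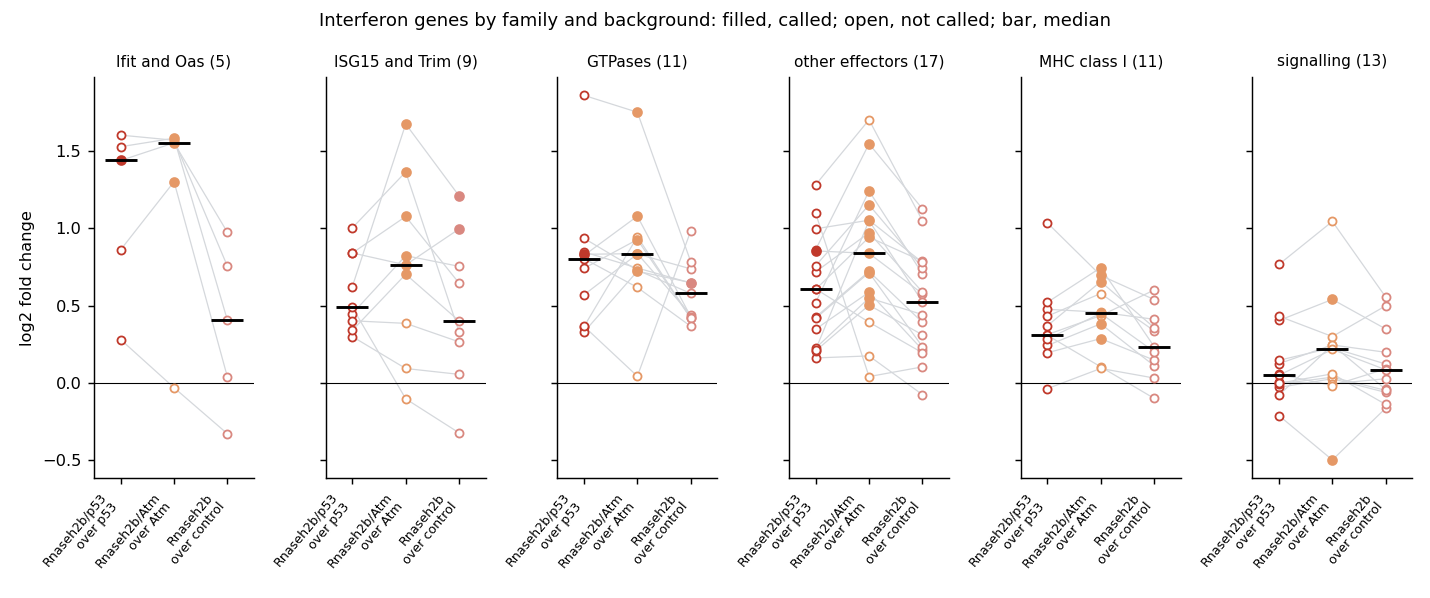
Each point is a tested gene of the family named above its panel, with the number of tested genes in brackets, and grey lines join the same gene across the deletions of Rnaseh2b on the p53, Atm and control backgrounds. The y axis is the log2 fold change, filled points are called, and black bars are medians, which on the p53 background are 1.44, 0.49, 0.80, 0.60, 0.31 and 0.05 from left to right.

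Beside the other backgrounds, no interferon gene was called for a difference in the size of the effect. The median over the 42 genes was 0.67 on the p53 background, 0.83 on the Atm background (Rnaseh2b/Atm over Atm) and 0.48 on the control background (Rnaseh2b over control). Of the 42 genes, 27 rose on the Atm background, where 9.5% of tested genes were called (7.48% rose and 2.02% fell), and 3 on the control background, where 0.298% did. The difference between backgrounds was tested directly in the same fit. Neither limma nor voom called any of the 42 for a difference from the Atm background, with 1 higher and 4 lower at an unadjusted p below 0.05, or for a difference from the control background, with 2 higher and 0 lower. Of all 15421 tested genes, 501 were higher and 1292 lower against the Atm background at that unadjusted p. Against the control background 491 were higher and 520 lower. Without Rnaseh2b replicate 1 or replicate 3 in the fit, limma called 1 of the 42 as lower than on the Atm background. The median difference over the 42 genes was -0.24 against the Atm background, with 14 positive, and 0.20 against the control background, with 28 positive. Over all tested genes these medians were 0.006 and -0.01. Oasl2, Gbp2 and Ifi35 are given here because they were called on the p53 background. Oasl2 had fold changes of 1.44 ± 0.24 on the p53 background and 1.55 ± 0.24 on the Atm background, a difference of -0.11 ± 0.34. Gbp2 differed by 0.00 ± 0.22 in size between these backgrounds and Ifi35 by 0.02 ± 0.22.

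In Rnaseh2b/p53 against p53, p53 target genes showed no common shift. Limma and voom called 0 of 39 tested targets, 0 were higher and 1 lower at an unadjusted p below 0.05, and the median fold change was 0.01. That 1 gene was Tnfrsf10b, a death receptor gene, at -0.44, -0.87, -0.68 and -0.71 log2 CPM in Rnaseh2b/p53 and 0.60, -0.27 and 0.48 in p53 (-0.94 ± 0.30). Cyclin G1, Ccng1, a strongly p53-dependent transcript, was at 5.90, 5.87, 5.88 and 6.07 in Rnaseh2b/p53 and 5.75, 5.92 and 5.92 in p53. The groups overlapped, and the 95% interval of the fold change ran from -0.12 to 0.26. Cdkn1a (p21), the main arrest effector, was at 3.89, 3.94, 3.97 and 4.05 in Rnaseh2b/p53 and 3.95, 4.09 and 3.87 in p53, with an interval of -0.34 to 0.32. For other targets the interval was wider, and Eda2r (0.45, interval -0.81 to 1.71) and Pmaip1, which encodes Noxa (0.68, interval -0.20 to 1.56), leave room for sizeable changes. Pmaip1 did have all 4 Rnaseh2b/p53 libraries (0.45 to 0.82) above the p53 libraries (-0.36 to 0.39). Of the 39 targets, 5.13% lay all above and 5.13% all below, near the shares of all tested genes (4.64% and 4.29%). At an unadjusted p below 0.05, 2.3% of all tested genes were higher and 1.63% lower.

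On the Atm background 13 of the same 39 targets rose upon the Rnaseh2b deletion, with a median of 0.34, and on the control background 3 rose, with a median of 0.20. The shares of all tested genes that rose were 7.48% and 0.298%. The difference of the effects, p53 background minus Atm background, was called for 163 of 15421 genes (1.06%), 28 higher (0.182%) and 135 lower (0.875%). The balance of directions turned round without control replicate 2 and Atm replicate 1, where 489 were higher and 390 lower. Among the 39 targets 6 were called, all lower on the p53 background. Ccng1 differed by -1.01 ± 0.13 (adjusted p = 0.00277), having a fold change of 0.07 ± 0.09 on the p53 background and 1.08 ± 0.09 on the Atm background. The microsomal epoxide hydrolase gene Ephx1 differed by -1.31 ± 0.17 (adjusted p = 0.00277), the sugar reductase gene Dcxr by -1.44 ± 0.21 (adjusted p = 0.00564), and the nuclease gene Aen, which acts in apoptosis, by -0.87 ± 0.13 (adjusted p = 0.00859). These 4 were called in every alternative fit that tested them, with adjusted p no higher than 0.0441. Abhd4 (-0.46 ± 0.08, adjusted p = 0.0207) and the stress sensor gene Sesn2 (-0.73 ± 0.16, adjusted p = 0.0442) were called in the reported fit and lost in some alternatives. Leaving out 1 library at a time left 4 to 8 targets called, and 13 were called without control replicate 2 and Atm replicate 1, which had the lowest array weights of the 20 libraries (0.149 and 0.138).

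Against the control background, limma and voom called none of the 39 targets for a difference, while 11 were lower and 0 higher at an unadjusted p below 0.05. Of all 15421 tested genes, 520 were lower and 491 higher at that unadjusted p. Ccng1 differed by -0.46 (adjusted p = 0.31) and Aen by -0.61 (adjusted p = 0.18). A single gene of 15421 (0.00648%) was called for this difference, Gm15920.

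**Figure D3:**
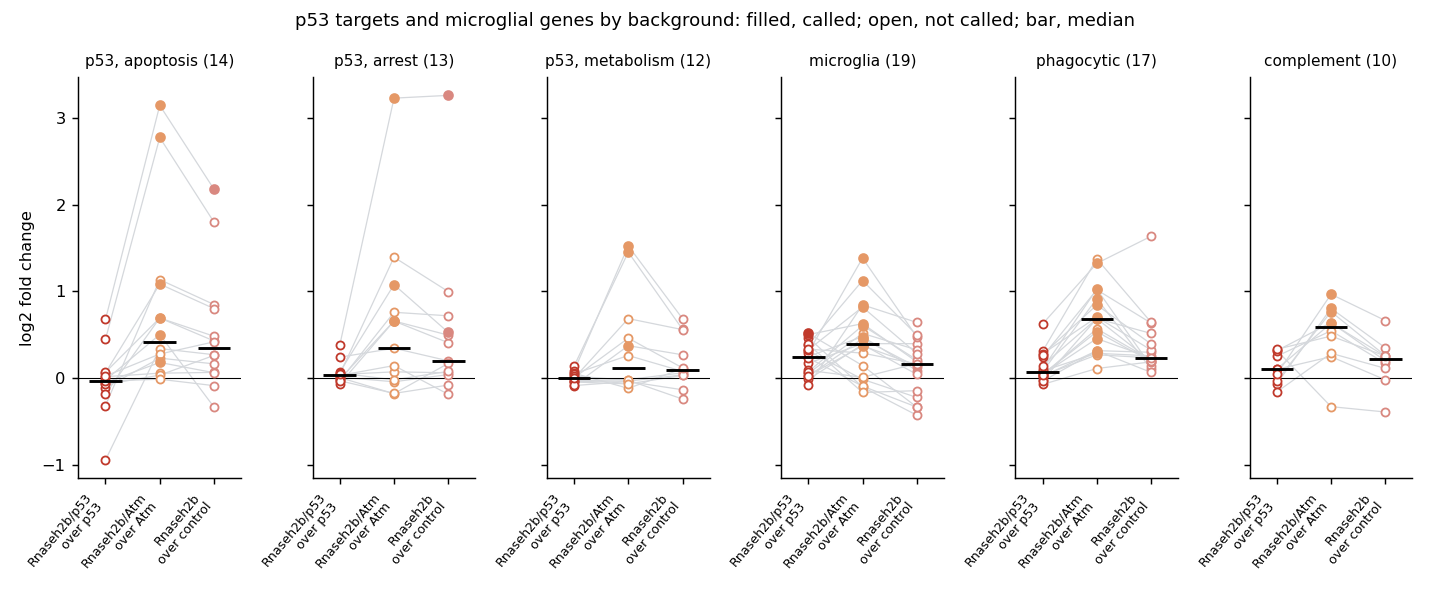
Each point is a tested gene of the group named above its panel, with the number of tested genes in brackets, and grey lines join the same gene across the 3 backgrounds. The y axis is the log2 fold change upon the Rnaseh2b deletion, filled points are called, and black bars are medians. On the p53 background the medians of the 6 panels lie between -0.03 and 0.25, and Gpr34 is the only filled point.

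Homeostatic microglia genes were slightly higher in Rnaseh2b/p53, mostly without being called, with positive fold changes in 17 of 19 and a mean level, relative to the mean of the 20 libraries, of -0.20 to -0.05 in Rnaseh2b/p53 against -0.36 to -0.35 in p53, without overlap. Gpr34, a lysophosphatidylserine receptor of microglia, was at 2.75, 2.74, 2.92 and 3.01 log2 CPM in Rnaseh2b/p53 and 2.34, 2.32 and 2.35 in p53, with no overlap, and rose by 0.52 ± 0.09 (adjusted p = 0.0389). Of 19 homeostatic microglia genes 1 rose, 5 were higher at an unadjusted p below 0.05, and the median was 0.25. Across all tested genes 0.123% rose and 2.3% were higher at that unadjusted p. The fractalkine receptor gene Cx3cr1 (0.25 ± 0.07), the purinergic receptor gene P2ry12 (0.47 ± 0.21) and the leukocyte phosphatase gene Ptprc (0.50 ± 0.15) also had groups that did not overlap. The growth factor receptor gene Csf1r (0.02 ± 0.08) was near 0, with an interval of -0.15 to 0.20. Gpr34 was not called when any of the 7 libraries was left out, and its control level (mean 2.82) lay close to that of Rnaseh2b/p53 (mean 2.85). In bulk tissue, fewer cells of a type and less RNA per cell cannot be told apart.

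Complement and phagocytic genes had medians near 0, whereas on the Atm background 4 of 10 complement and 10 of 17 phagocytic genes rose, where 7.48% of tested genes did. C1qa, the first component of the classical complement cascade, was at 3.31, 3.22, 3.03 and 2.75 log2 CPM in Rnaseh2b/p53 and 3.17, 3.29 and 2.96 in p53, with complete overlap (-0.06 ± 0.13). Its difference from the Atm background was -0.87 ± 0.18 (adjusted p = 0.0304), and that of C1qb was -0.80 ± 0.14 (adjusted p = 0.0194). Without Atm replicate 2 or without p53 replicate 1, neither complement difference was called. Igf1 (-0.92 ± 0.14, adjusted p = 0.01) and the lysosomal protease gene Ctsd (-0.49 ± 0.10, adjusted p = 0.0313) among phagocytic genes, and the small heat shock gene Hspb1 (-1.24 ± 0.21, adjusted p = 0.014) among reactive astrocyte genes, also differed. On the p53 background itself the medians were 0.10 for complement, 0.08 for phagocytic and 0.08 for reactive astrocyte genes, against 0.59, 0.69 and 0.62 on the Atm background. Atm replicate 1 had a mean level of -0.42 for phagocytic genes, relative to the mean of the 20 libraries (other Atm libraries -0.15 and 0.05). For reactive astrocyte genes it was at -0.55 (others -0.08 and 0.08), and for complement genes it lay between the others, at -0.03. The part of that library in the Atm medians was not tested. Limma and voom called none of these 39 genes in Rnaseh2b/p53 against p53, and 1, the protease gene Ctss, was higher at an unadjusted p below 0.05 (0.28 ± 0.10). Among all tested genes 2.3% were higher at that unadjusted p. Gfap, the astrocyte filament gene, differed by 0.21 ± 0.20.

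**Figure D4:**
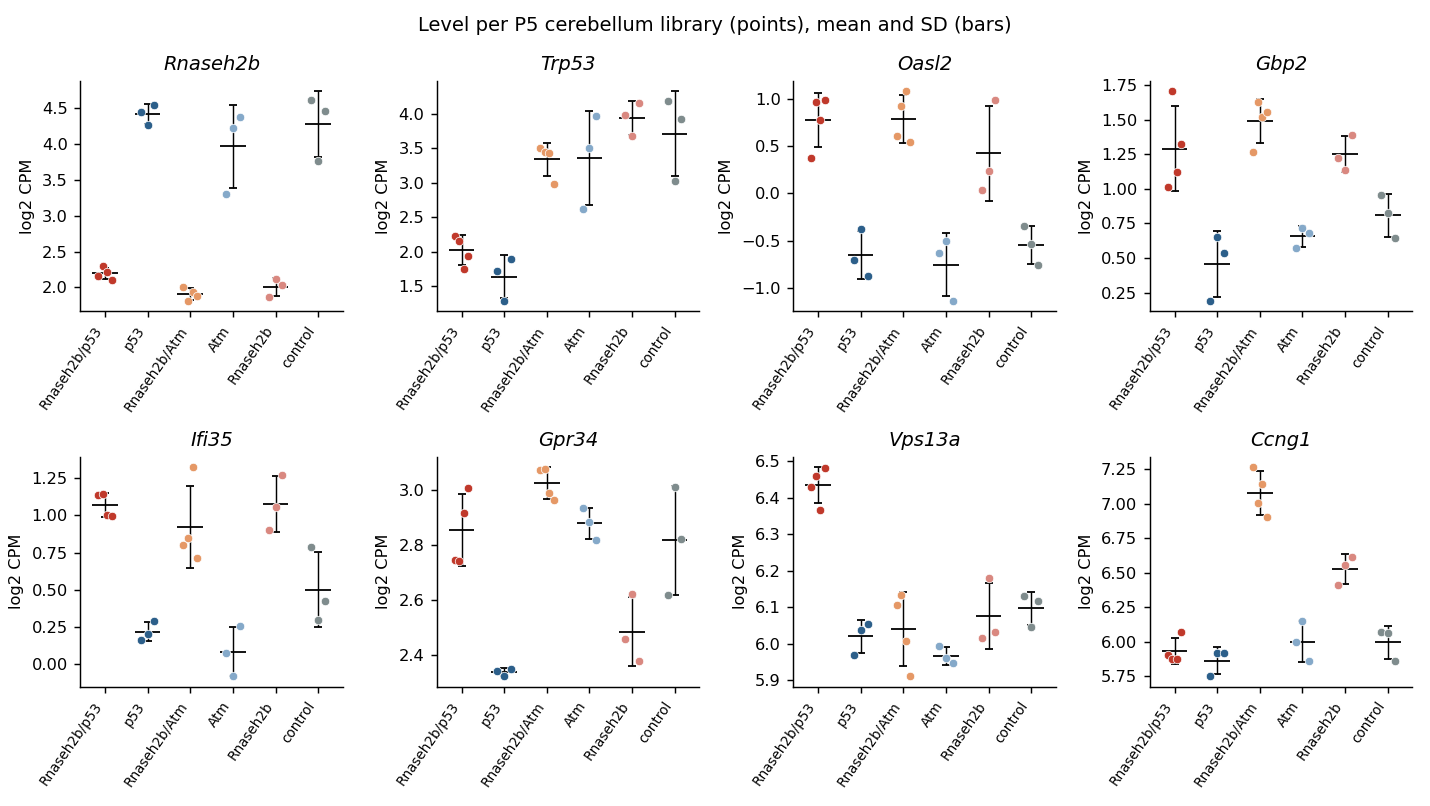
Points are single P5 libraries of the 6 groups on the x axis, with log2 CPM on the y axis, a horizontal bar at the group mean and an error bar of 1 SD. Rnaseh2b/p53 lies below p53 for Rnaseh2b and above it for Oasl2, Gbp2, Ifi35, Gpr34 and Vps13a, while Trp53 is low in both, and Ccng1 lies near 6 in Rnaseh2b/p53, p53, Atm and control and higher in Rnaseh2b/Atm and Rnaseh2b.

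The largest fold changes among named protein-coding genes that rose belonged to skeletal muscle. Of 21 tested muscle genes 5 rose and 0 fell, 11 were higher at an unadjusted p below 0.05, 13 had Rnaseh2b/p53 libraries all above p53 libraries, and the median was 0.64. Among all tested genes 0.123% rose, 2.3% were higher at that unadjusted p, and 4.64% had Rnaseh2b/p53 libraries all above. Of the 21, 12 would have been tested without the groups deleted for Rnaseh2b, and the others entered the test through those groups. Voom called 3 of the 21. Leaving out 1 library left 2 muscle genes called without Rnaseh2b/p53 replicates 1, 2 or 3 or p53 replicates 2 or 3, and 3 without p53 replicate 1, Rnaseh2b replicate 1 or Rnaseh2b/Atm replicates 1 or 2. Averaged over the 21 genes, relative to the mean of the 20 libraries, muscle genes stood at 0.73, 0.32, 0.43 and -0.09 in Rnaseh2b/p53 and -1.11, -1.40 and -1.10 in p53.

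Myog, which encodes myogenin, the transcription factor of muscle differentiation, had 195, 74, 1372 and 82 reads in Rnaseh2b/p53 libraries and 1, 0 and 1 in p53 libraries. Pooled over libraries and scaled to depth, the ratio was 212 with a 95% counting interval of 58.5 to 1750, which covers counting error only (adjusted p = 0.0206). Tnnc2, fast troponin C, had 80, 25, 353 and 22 reads in Rnaseh2b/p53 and 3, 2 and 4 in p53, a pooled ratio of 13.1 with a counting interval of 6.84 to 28.8 (adjusted p = 0.00532). Both genes were nearly silent in p53 cerebellum and low even where they were higher, with mean levels of 1.15 and 0.69 FPKM in Rnaseh2b/p53 against 0.00657 and 0.0514 FPKM in p53.

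Tnni1, slow troponin I, was at 0.05, -0.44, -0.15 and -0.32 log2 CPM in Rnaseh2b/p53 and -3.98, -4.17 and -2.62 in p53, and rose by 3.37 ± 0.45 (adjusted p = 0.00494). Myh3, the embryonic myosin heavy chain, was at 3.46, 2.67, 2.68 and 1.61 in Rnaseh2b/p53 and 0.22, -0.35 and 0.22 in p53, and rose by 2.57 ± 0.46 (adjusted p = 0.0389). Mylpf, the fast regulatory light chain of myosin, rose by 1.91 ± 0.34 (adjusted p = 0.0389). In all 5 genes the groups were well apart, and replicate 4 was the lowest Rnaseh2b/p53 library for Myog, Tnnc2, Myh3 and Mylpf. Others of the list were higher without being called, such as the fetal actin gene Actc1 (1.69, 1.19, 1.35 and 0.53 in Rnaseh2b/p53 against -3.02, -3.96 and -3.98 in p53, 4.84 ± 1.18, adjusted p = 0.187) and the myosin light chain gene Myl1 (2.26 ± 0.47, adjusted p = 0.078). The commitment factor gene Myod1 stood at 0.66, -0.19, 0.14 and -0.29 in Rnaseh2b/p53 and -1.72, -2.02 and -1.42 in p53, a clear gap with a wide shared error (1.80 ± 1.20), and it was called with the 2 groups fitted alone. Of the 21 genes 19 had positive fold changes, down to 0.08 ± 0.14 for Ryr1, and Myh7 (-0.58 ± 0.28) and Neb (-0.06 ± 0.24) had negative ones. Meningeal genes, averaged in the same way over 11 genes, overlapped between the groups, at -0.37 to -0.25 in Rnaseh2b/p53 and -0.45 to -0.16 in p53. Which cells the muscle transcripts came from was not tested.

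**Figure D5:**
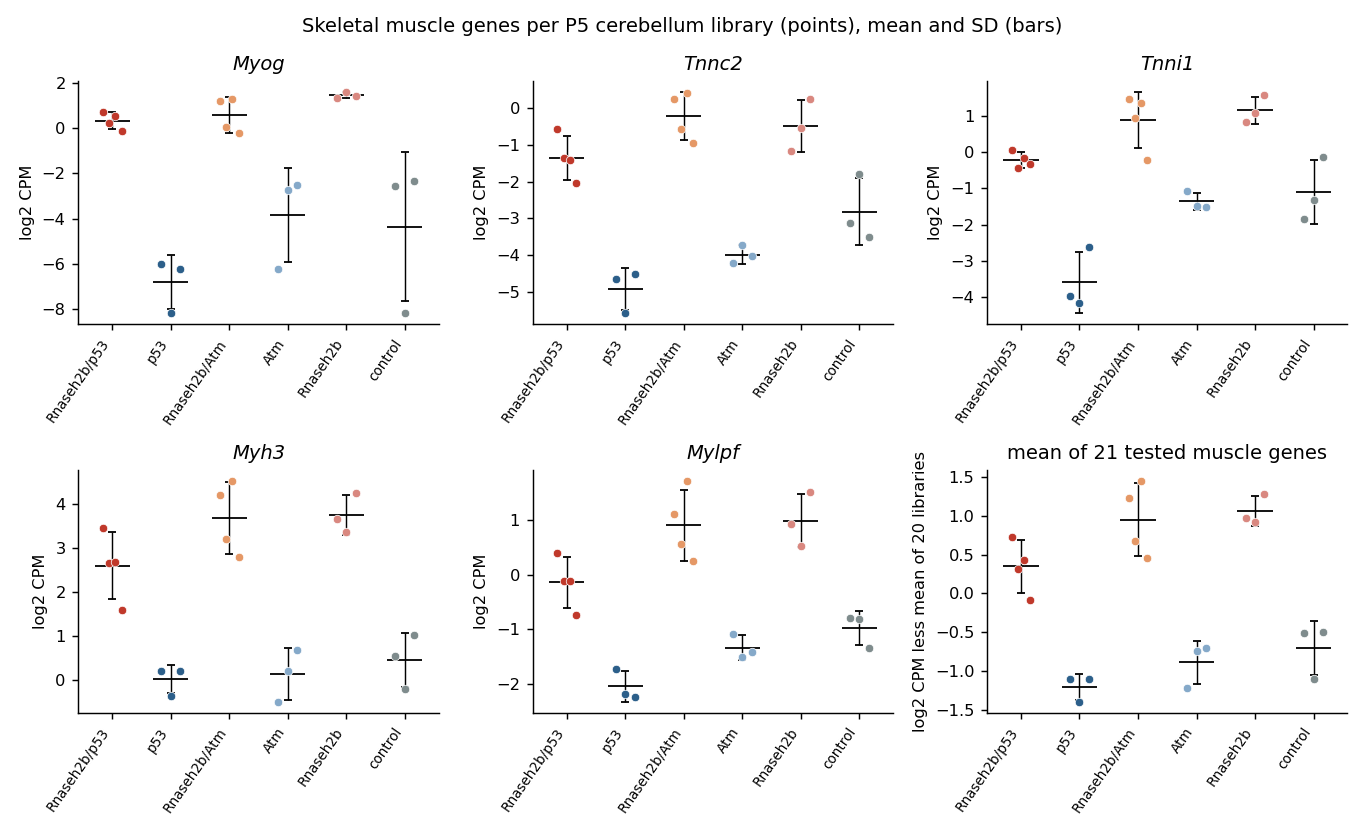
Points are single P5 libraries of the 6 groups on the x axis, with a bar at the mean and an error bar of 1 SD. The y axis is log2 CPM for Myog, Tnnc2, Tnni1, Myh3 and Mylpf, and for the last panel the mean over the 21 tested muscle genes relative to the mean of the 20 libraries. In each of the 3 pairs of groups the one deleted for Rnaseh2b lies above its partner.

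Muscle genes were also called on the other backgrounds, in part among the 9 genes that entered the test only through groups deleted for Rnaseh2b. Myh3 averaged 2.60 log2 CPM in Rnaseh2b/p53 against 0.03 in p53, 3.69 in Rnaseh2b/Atm against 0.14 in Atm, and 3.76 in Rnaseh2b against 0.46 in control. The list median was 0.64 on the p53 background, 1.42 on the Atm background and 1.28 on the control background, and 14 of the 21 genes rose on the Atm background and 7 on the control background. Of all tested genes, 7.48% rose on the Atm background and 0.298% on the control background. Neither limma nor voom called any of the 21 for a difference between the p53 background and either of the other 2. At an unadjusted p below 0.05, 4 were lower and 0 higher against the Atm background, and 1 lower and 0 higher against the control background. Of all 15421 tested genes, 1292 were lower and 501 higher against the Atm background at that unadjusted p. Against the control background 520 were lower and 491 higher. Cdh15, a cadherin of both muscle satellite cells and cerebellar granule cells, rose on the control background (1.68, adjusted p = 0.0123) and differed by 0.25 ± 0.23 on the p53 background.

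Genes of neurons, proliferating progenitors, astrocytes and the oligodendrocyte lineage of the cerebellum showed no called change. Medians were 0.03 for granule cell progenitor, -0.02 for granule neuron, 0.02 for mitotic, 0.05 for replication, -0.01 for deoxynucleotide pool and 0.11 for Purkinje cell genes. Limma and voom called 0 genes in each of these lists and in those of astrocytes, oligodendrocytes and their progenitors, inhibitory interneurons, choroid plexus, meninges and DNA repair, and 0 of their members passed an unadjusted p below 0.05. Intervals were wide for cell cycle genes. Mki67, a marker of cycling cells, was at 8.15, 8.17, 7.83 and 7.68 in Rnaseh2b/p53 and 8.004, 7.73 and 8.13 in p53, with an interval of -1.08 to 1.08. Top2a, the mitotic topoisomerase, had an interval of -0.85 to 1.20, and the Purkinje cell calcium buffer gene Calb1 one of -0.86 to 1.19. A difference of 2-fold in these genes would lie within or close to these intervals. Without control replicate 2 and Atm replicate 1, limma also called 0 members of these lists, as it did with the 2 groups fitted alone. Mitotic genes averaged -2.36 in Atm replicate 1 and -0.95 in control replicate 2, relative to the mean of the 20 libraries. The SD of that mean was 0.19 in Rnaseh2b/p53, 0.20 in p53, 1.43 in Atm and 0.84 in control. The part of these 2 libraries in the width of the intervals was not tested.

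The remaining named genes that were called covered unrelated roles. Vps13a, a lipid transfer protein whose loss causes chorea-acanthocytosis in humans, was at 6.43, 6.46, 6.37 and 6.48 log2 CPM in Rnaseh2b/p53 and 5.97, 6.04 and 6.05 in p53, and rose by 0.41 ± 0.06 (adjusted p = 0.00494), a small change with tight groups. Its fold change was 0.07 ± 0.06 on the Atm background, and the difference of 0.34 ± 0.08 was called (adjusted p = 0.0485). Akirin2, a nuclear factor needed for import of the proteasome, rose by 0.47 ± 0.09 (adjusted p = 0.0411) and likewise differed from the Atm background (0.59 ± 0.12, adjusted p = 0.0313). Slco1c1, the thyroid hormone transporter of brain capillaries, rose by 0.57 ± 0.11 (adjusted p = 0.0411), whereas Cldn5, a tight junction gene of the same cells, differed by 0.00 ± 0.07 in size. Of 14 endothelial genes, Slco1c1 was the only one called and 3 were higher at an unadjusted p below 0.05, with a median of 0.04. Among all tested genes 2.3% were higher at that unadjusted p. Socs4, a suppressor of cytokine signalling (-0.76 ± 0.14), Jmjd5 (-0.83 ± 0.15), the oxidoreductase gene Ero1lb (-0.42 ± 0.08) and the endonuclease subunit gene Slx1b (-0.32 ± 0.06) fell, with adjusted p between 0.0389 and 0.0483.

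Rpl3, a core protein of the large ribosomal subunit, and its pseudogene copies moved in opposite directions. Rpl3 was at 7.30, 7.29, 7.23 and 7.18 log2 CPM in Rnaseh2b/p53 and 8.24, 7.73 and 8.22 in p53, and fell by 0.81 ± 0.14 on the log2 scale (adjusted p = 0.0389). Rpl3-ps1 was at 8.07, 8.05, 7.996 and 7.92 in Rnaseh2b/p53 and 7.26, 7.57 and 7.29 in p53, and rose by 0.64 ± 0.10 (adjusted p = 0.0206), and Rpl3-ps2 differed by 1.25 ± 0.25 (adjusted p = 0.0507). The p53 replicate 2 library was intermediate for all 3. Reads can be split between a gene and near-identical copies, so how much each of them changed is uncertain. The median of 81 ribosomal protein genes was -0.05, with Rpl3 as the only one called.

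RNaseP_nuc, a noncoding RNA named as a nuclear RNase P RNA in the table, had 17, 8, 161 and 14 reads in Rnaseh2b/p53 and 33297, 39923 and 44011 in p53, a pooled ratio of 0.000419 with a counting interval of 0.000363 to 0.000481 (adjusted p = 0.0389). Its mean level was -0.38 log2 CPM in Rnaseh2b and 4.90 in control, with an SD of 6.82 among the 3 control libraries, so libraries of the same genotype also took very different values. Gm15920 was at 2.43, 2.42, 2.47 and 2.48 in Rnaseh2b/p53 and 3.27, 3.27 and 3.27 in p53, and fell by 0.82 ± 0.09 (adjusted p = 0.000399). On the Atm background it differed by 0.26 ± 0.09 in the other direction, and both differences between backgrounds were called (-1.08 ± 0.12 and adjusted p = 0.00201 against Atm, -1.07 and adjusted p = 0.0036 against control).

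Several of the genes with the smallest p-values were neighbours in the genome. Of 73 genes with an unadjusted p below 0.001, 70 could be placed in RefSeq, and 25 of them fell into 9 runs in which starts lay within 1 Mb. One run on chromosome 15 joined Apobec3 (0.80 ± 0.16) and Rpl3, one on chromosome 7 joined Jmjd5, Sbk1, Slx1b and Mylpf, one on chromosome 9 joined Ppm1m, Rpl29 and Abhd14a, and one on chromosome 5 held Gbp6, Gbp9 and Gbp10. Another run on chromosome 5 joined Oasl2 with a gene model, at log2 fold changes of 1.44 and 2.57. The run on the X chromosome joined Rpl3-ps1 and Gpr34. Chromosome 14, which carries Rnaseh2b, held 10 of the 70 genes (14.3%) and 551 of 15004 placed tested genes (3.67%), and 5 of these 10 were a run of D14Ertd449e and gene models including Gm10395 and Gm10394. Whether alleles linked to the deleted genes differ between the groups was not tested, nor how often genes taken at random fall into such runs.

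Further genes were called for a difference of effect between the p53 and Atm backgrounds. The kinase gene Mapkapk3 had the largest negative difference from the Atm background among genes averaging at least 1 log2 CPM (-2.11 ± 0.36, adjusted p = 0.0136). It was at 0.76, 0.55, 0.89 and 0.54 log2 CPM in Rnaseh2b/p53 and 0.83, 1.57 and 1.51 in p53, and its fold change was 1.49 ± 0.25 on the Atm background. The potassium channel gene Kcnj8, expressed in pericytes, differed by -0.98 ± 0.14 (adjusted p = 0.00686), and Mavs, the adaptor of the RNA sensors, by -0.49 ± 0.09 (adjusted p = 0.0242). Mavs was at 2.68, 2.73, 2.69 and 2.72 in Rnaseh2b/p53 and 2.86, 2.84 and 2.87 in p53, without overlap and without being called (-0.15 ± 0.07), while it rose by 0.34 ± 0.07 on the Atm background (adjusted p = 0.00409). Higher differences included Dock4 (0.84 ± 0.18, adjusted p = 0.0369) and Klhl21 (0.96 ± 0.20, adjusted p = 0.0313), both of which fell on the Atm background and were not called on the p53 background.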

How the data were processed

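The authors deposited log2 CPM per gene for the P5 libraries, and FPKM as a second scale, made with Trim Galore, STAR, BWA, HTSeq and limma on mm9, per the submitters' processing notes; versions and the role of each tool are not given in the sources used here. Columns were matched to samples by the titles in the labels. Of 19235 rows in the table, 3 that name no gene were left out. Whole reads were recovered from the log2 CPM, where 100% of the values came out whole to within 0.01, given a prior that averaged 0.5 read per library. Low depth widens the error of genes near 1 CPM, and intervals on read ratios cover counting error only. No 2 libraries of a group agreed within sampling noise.

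Genes at 1 CPM or more in at least 3 of the 20 libraries (15421) were fitted by limma 3.58.1 in R 4.3.3 with a variance trend and no covariate, on all 6 groups, with Benjamini-Hochberg adjustment. Differences between backgrounds were contrasts of the same fit, and the 2 effects set against each other share no library. Lists are described by counts and medians without a set test. Count models for raw reads were not used, since the deposited values are on the log2 scale; voom on recovered reads, FPKM with 0.1 or 1 added before the log2, other filters, scalings and weights, a replicate block and leaving out each library served as alternatives. The members and gene lists were chosen with earlier results of these data known, and so were the rules for naming genes: the engineered and RNase H genes, every named gene called, in each list up to 6 members with the smallest unadjusted p and 4 with the highest level, and for each difference between backgrounds up to 8 called genes with the largest difference each way and 4 members of each list with the smallest unadjusted p. Abhd14a, Actc1, Apobec3, Bst2, D14Ertd449e, Gbp10, Igtp, Myh7, Myod1, Ppm1m, Rpl29, Sbk1, Slfn2 and Xist were named after their values were seen. Names that some genes had after the table was made were matched through RefSeq. Promoter windows came from RefSeq on GRCm38.p6, a later build than the authors'. The fit was tested on simulated data. Figures were drawn with matplotlib 3.10.9 in Python 3.11.15.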

Additional observations from a re-analysis of the deposited data

Results flagged for a closer look

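In 6 of 176 genes and lists checked, 1 of the 4 Rnaseh2b/p53 libraries lay far from the other 3, a distance that chance gives in about 1 in 20 groups. Replicate 2 lay above the others for H2-K1 (4.17 log2 CPM, others 3.03 to 3.09), for B2m (5.32, others 4.72 to 4.74) and for the mean of the class I genes relative to all 20 libraries (0.34, others -0.04 to -0.002). The same library had the highest mean of GTPase genes and is the only one of the 4 with high Xist. Replicate 4 lay above the others for AY036118 (11.68, others 7.66 to 7.99), and for Ccng1 (6.07, others 5.87 to 5.90), and it also held the most reads outside genes. Replicate 1 lay above the others for Ifnar2 (3.36, others 3.20 to 3.22). The part of these library features in the values was not tested.

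The effect of the Rnaseh2b deletion differed between the p53 and Atm backgrounds, by the interaction test of limma, for these genes. p53 targets were lower on the p53 background, with differences of -1.01 for Ccng1, -1.31 for Ephx1, -1.44 for Dcxr, -0.87 for Aen, -0.46 for Abhd4 and -0.73 for Sesn2. Genes of microglia, complement, astrocytes and pericytes were lower as well, with differences of -0.87 for C1qa, -0.80 for C1qb, -0.92 for Igf1, -0.49 for Ctsd, -1.24 for Hspb1 and -0.98 for Kcnj8. The differences were -0.49 for Mavs, -2.11 for Mapkapk3, -1.03 for Ppm1m and -1.42 for Wdr63. Among genes called on the p53 background itself, they were 0.34 for Vps13a, 0.59 for Akirin2, -0.91 for Rpl3, 0.83 for Rpl3-ps1, -1.08 for Gm15920, -0.86 for 6030458C11Rik and 6.27 for Gm10167. Rpl3-ps2 (1.58), AY036118 (4.81), Dock4 (0.84) and Klhl21 (0.96) were higher on the p53 background. Against the control background the difference was called for Gm15920, at -1.07 on the log2 scale.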

How the results depend on the processing

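None of the 29 called genes changed sign in the alternatives run. Of 3343 alternative values of genes and list medians, 66 had the other sign, over 24 genes or lists that were not called, among them the median of the p53 targets (0.008, and -0.005 with quantile normalization). The 29 calls became 5 with a filter of 5 CPM, 61 with the 2 groups fitted alone, 46 without control replicate 2 and Atm replicate 1, 14 with Xist as a covariate and 317 with array weights, and ranged from 6 to 16 when each of the 7 libraries was left out. The 163 calls for a difference from the Atm background became 879, 87 and 2769 without those 2 libraries, with Xist and with array weights, and ranged from 22 to 260 over single libraries left out. The 1 call for a difference from the control background became 2 and 4 on the FPKM scale with 0.1 and 1 added, 7 without the 2 libraries, 2 with Xist and 282 with array weights, and ranged from 1 to 16. Genes with groups that do not overlap numbered 939 to 1329 higher and 894 to 1407 lower with 1 library left out, where fewer libraries make it easier not to overlap. List medians moved for interferon-stimulated genes (0.34 with FPKM plus 1, 0.42 at 5 CPM), homeostatic microglia (0.12 with FPKM plus 1, 0.31 with voom, 0.17 at 5 CPM) and muscle genes (0.35 with FPKM plus 1). Adding 1 FPKM shrinks the folds of low genes by construction, and the cause of the other changes was not tested.

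Replicate numbers did not pair the samples: same-numbered Rnaseh2b/p53 and p53 libraries correlated at 0.23, -0.146 and -0.294 in their deviations from the group means, and not every sample correlated best with its own number. With the replicate block, 4 genes were called in the main comparison, 21 for the difference from the Atm background and 0 for that from the control background. Depth limits genes near 1 CPM most, among them the muscle and many interferon genes. The shared spread also holds libraries of the other groups, and the small number of replicates limits precision throughout.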

Other observations

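Immediate early genes are switched on rapidly when neurons are active. Fos was at 2.35, 2.25, 2.12 and 2.37 log2 CPM in Rnaseh2b/p53 and 1.57, 1.88 and 1.86 in p53 (0.50 ± 0.18), and Egr1 was at 0.97, 1.37, 1.11 and 0.90 in Rnaseh2b/p53 and 0.27, 0.49 and 0.19 in p53 (0.77 ± 0.33). The groups did not overlap for either gene, limma and voom called 0 of 7 tested genes of this kind, and 2 were higher at an unadjusted p below 0.05. Of the 7, 3 had Rnaseh2b/p53 libraries all above p53 libraries. Among all tested genes 2.3% were higher at that unadjusted p and 4.64% lay all above.

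The 13 protein-coding genes of the mitochondrial genome all had positive fold changes, with a median of 0.13 on the log2 scale, and limma and voom called 0 of them, with 0 at an unadjusted p below 0.05. Their mean level, relative to the mean of the 20 libraries, was 0.005, -0.09, -0.09 and 0.31 in Rnaseh2b/p53 and -0.17, 0.01 and -0.16 in p53. The groups overlapped, and the highest value was that of Rnaseh2b/p53 replicate 4, which also held the most reads outside genes. Histone genes had a median of -0.10 over 66 genes, and 0 of them were called by limma or voom, with 1 higher at an unadjusted p below 0.05. Among all tested genes 2.3% were higher at that unadjusted p.

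Rpl29, a ribosomal protein gene, was at 2.87, 2.61, 2.72 and 2.66 log2 CPM in Rnaseh2b/p53 and 5.88, 6.60 and 6.70 in p53 (-3.68 ± 0.88, adjusted p = 0.173), and was called with the 2 groups fitted alone. Apobec3, a cytidine deaminase gene that interferon raises, was at 1.63, 1.81, 1.57 and 1.65 in Rnaseh2b/p53 and 0.83, 0.76 and 1.02 in p53 (0.80 ± 0.16, adjusted p = 0.0556), close to the threshold, while Gbp2 lay just inside it (adjusted p = 0.0411).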
